A study of Solanum lycopersicum with 12 samples.

Results

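The clones described here are 58 unnamed root cDNA clones of tomato (Solanum lycopersicum) whose log2 ratio between treated and control RNA stayed near 0 after 30 min and 2 hr of salt treatment and lay at least 2-fold from 0 after 6 hr, in both genotypes of the study. They were chosen by their own values. A clone had to be measured on all 12 arrays, to have a mean log2 ratio within 0.58 of 0 (a 1.49-fold difference) at 30 min and at 2 hr, and to have a mean of at least 1 on one side at 6 hr, in each genotype and without any centring of the arrays. Clones annotated with a gene symbol were left out. Of 3456 clones on the array, 3018 were measured on all 12 arrays and 2941 of these carry no gene symbol. The rule kept 7 clones on the positive side and 51 on the negative side.

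Seedlings of ZS-5, which the labels call salt sensitive, and of LA2711, which they call salt tolerant, were exposed to salt for 30 min, 2 hr or 6 hr. Root RNA of treated plants was hybridised with RNA of control plants to 2-colour arrays of clones from subtracted libraries, 1 pair of arrays with swapped dyes for each of the 6 conditions. The 6 groups are thus ZS-5 and LA2711 at each of the 3 times, each against its control plants. The sources used here give neither the salt concentration nor the seedling age, the growth medium or the number of plants pooled. A dye-swap pair was counted as 1 replicate, so each condition has 1 replicate, and the labels leave unsaid whether the 3 times come from separate cultures. The deposited log2 ratios all run the same way, but the labels do not tell whether treated or control RNA is the numerator, so the positive and the negative side are named as such and neither is called an induction.

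As background, salt reaches the root first as an osmotic signal and later as an accumulation of sodium ions, and the transcripts that respond within minutes are in part other genes than those that respond after hours. Suppression subtractive hybridisation enriches a library for cDNAs that differ between treated and control tissue, so most clones on such an array are expected to differ at some time, and the library is no sample of the whole transcriptome. An unnamed clone is known here by the numbers of its 3 adjacent spots. For the 58 clones the sources used here give no sequence and no function, so no role can be stated.

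At 6 hr the median clone of the array lay on the negative side. In ZS-5 the median of all 3018 clones was -0.02 at 30 min, 0.01 at 2 hr and -0.88 at 6 hr. For LA2711 the same medians were 0.20, -0.33 and -1.03. In both genotypes 47.7% of all clones had a mean of at least 1 on the negative side at 6 hr, and 19.1% on the positive side. The excess of 51 negative over 7 positive clones in the set stands beside this shift of the background, and nothing is read from it. Relative to the median clone of each array, all 7 positive clones stayed at 1 or more at 6 hr in both genotypes. So did 14 of the 51 negative clones on their side, and 0 of the 58 changed side. The 4 array medians of 6 hr lay between -1.26 and -0.58, so centring could only raise a clone. In each genotype it raised the 6 hr means by less than the limit of 1. The limits thus fix the 7 and the 0, from which nothing is read, and left only the 14 open. Applied to arrays centred on their median, the rule kept 64 positive and 23 negative clones, 5 and 14 of them shared, and after quantile normalisation 7 and 2, 1 and 2 of them shared. The 64 include clones at places of the array order that recur with near-constant ratios (described further on). Outside those places 57 positive and 24 negative clones met the centred limits, annotated clones included. The dye-swap arrays of a condition correlated across the 3018 clones at r = 0.81 to 0.98, with LA2711 at 30 min the lowest, and the clones are not independent replicates.

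The 7 positive clones had ZS-5 means at 6 hr from 1.18 to 2.73 with a median of 1.70, and LA2711 means from 1.06 to 2.16 with a median of 1.51. At 30 min their medians were -0.13 in ZS-5 and 0.11 in LA2711. At that time 5 of 7 clones were below 0 in ZS-5 and 6 of 7 above 0 in LA2711, so neither genotype had all 7 on one side. At 2 hr the genotypes were unlike: all 7 clones were above 0 in ZS-5, with a median of 0.52 just under the limit of 0.58, whereas in LA2711 the median was 0.05 and 2 of 7 were below 0. So near the limit the choice rested on single arrays: without repeat 1 of ZS-5 at 2 hr the rule kept 25 positive clones, and without repeat 2 it kept 3. The step from 30 min to 2 hr had a median of 0.66 in ZS-5 and 0.01 in LA2711, and the step from 2 hr to 6 hr had medians of 1.45 and 1.53. These values chose the clones and are given as a description with no test. The genotypes were also unlike at 2 hr in the other 199 clones within the early limit outside the recurring places. There 164 clones were above 0 in ZS-5, with a median of 0.295, and 114 were below 0 in LA2711, with a median of -0.069. Their step from 30 min to 2 hr had medians of 0.233 and -0.253, so the gap is not particular to the 7.

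The 51 negative clones had ZS-5 means at 6 hr from -4.25 to -1.02 with a median of -1.55, and LA2711 means from -3.59 to -1.09 with a median of -1.85. At 30 min their medians were -0.08 in ZS-5 and 0.19 in LA2711, with 39 of 51 clones above 0 in LA2711. At 2 hr the median was -0.18 in ZS-5 and -0.34 in the LA2711 arrays, where 44 of 51 clones were below 0. In LA2711 these early values follow those of the whole array, whose medians were likewise above 0 at 30 min and below 0 at 2 hr. The ZS-5 values at 2 hr do not: 34 of the 51 clones were below 0, whereas the median of all clones was 0.015. At that time the other 199 clones within the early limit outside the recurring places lay higher than the negative clones. Their ZS-5 median was 0.295 and their LA2711 median -0.069. The early limit bounds the 2 hr values of both groups, and the members were divided from the other clones by their 6 hr values. The gap is thus a description from which nothing is read, and its cause was not tested. The step from 2 hr to 6 hr had a median of -1.46 in ZS-5 and -1.52 in LA2711, and it was below 0 for all 51 clones in both genotypes. Over all clones that step had medians of -0.76 and -0.35. These values chose the 51 clones, so the limits fix the side of their step. The step is given as a description, and nothing is read from its gap to all clones.

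**Figure D1:**
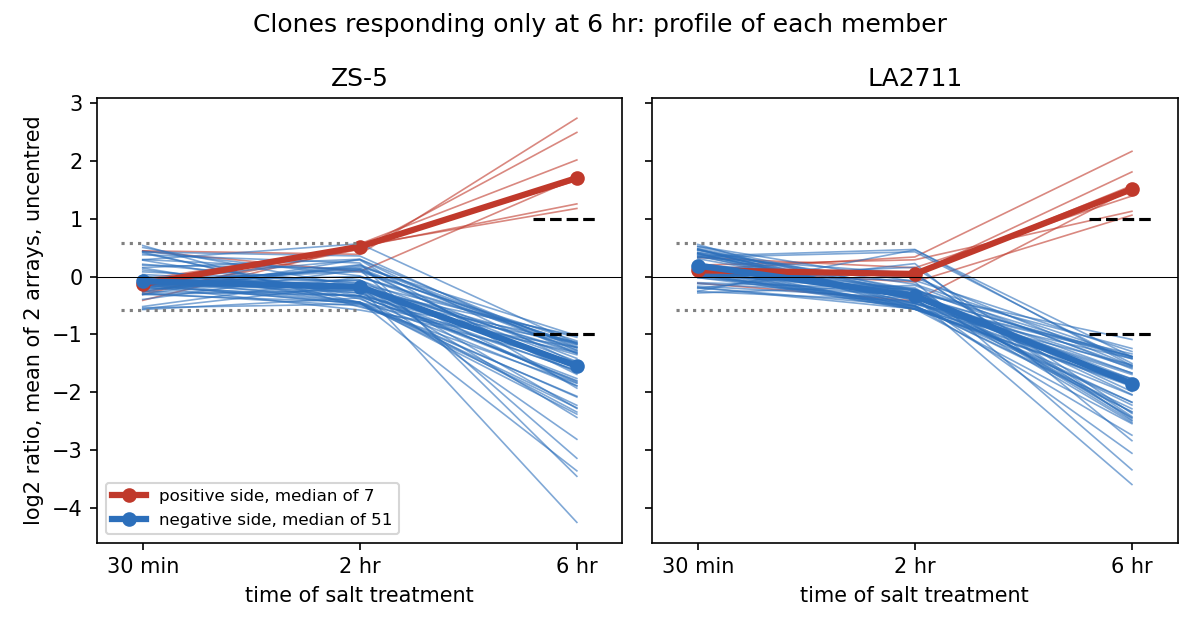
Mean uncentred log2 ratio of the 2 arrays of each condition (y axis) at 30 min, 2 hr and 6 hr (x axis) in ZS-5 and LA2711, with a thin line for each of the 58 clones and a thick line for the median of the 7 positive and the 51 negative clones. Dotted lines mark the limit of 0.58 at the early times and dashed lines the limit of 1 at 6 hr; the positive median in ZS-5 lies at 0.52 at 2 hr, near the dotted line, and at 0.05 in LA2711.

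Array by array, the 6 hr side was the same throughout. All 4 arrays of 6 hr lay on the same side of 0 for 58 of 58 clones, and so did every measured spot. The limit of 1 itself was passed on each of the 4 arrays by 36 clones, 4 positive and 32 negative. The early limit was looser on single arrays than on means: 13 clones stayed within 0.58 on all 8 earlier arrays, 1 positive and 12 negative, and the largest earlier single-array value was 1.02 from 0. For 47 clones, 6 positive and 41 negative, every 6 hr array lay further out than every one of the 8 earlier arrays. The means of these same arrays chose the clones, so the counts are a description and nothing is read from them. The SD between the spots of a clone on an array had a median of 0.11 over the 58 clones and also over all clones, so the scatter between spots of a clone was small beside the 6 hr values.

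**Figure D2:**
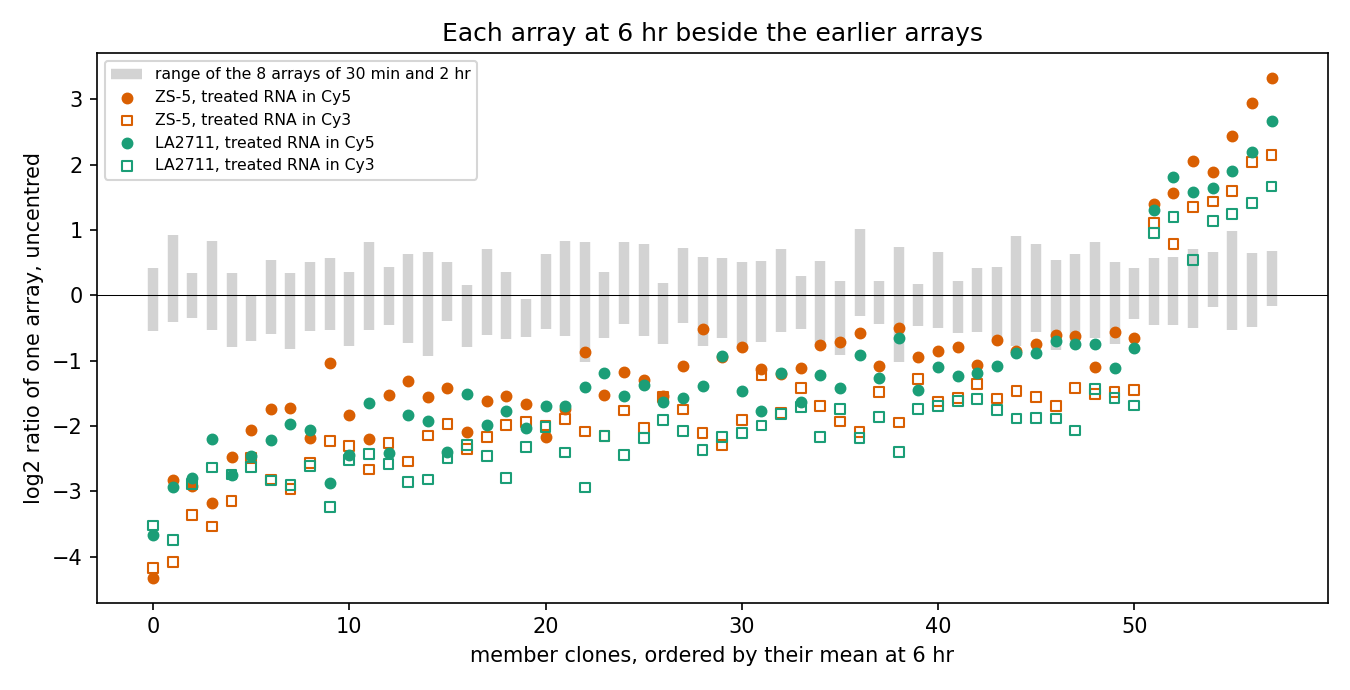
Uncentred log2 ratio on each of the 4 arrays of 6 hr (points, y axis) for the 58 clones ordered by their 6 hr mean (x axis), with a grey bar for the range of the 8 arrays of 30 min and 2 hr. Points lie clear of the grey bar for 47 clones; the filled points, with treated RNA in Cy5, lie above the open points for all 7 positive and, in each genotype, 49 of the 51 negative clones.

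On the positive side the clone with the largest 6 hr mean was that of spots 7708 to 7710. Its 6 hr values were 3.33 and 2.14 on the ZS-5 arrays with treated RNA in Cy5 and in Cy3, and 2.66 and 1.67 on the LA2711 arrays. On the 8 earlier arrays it ranged from -0.16 to 0.68, so its early and late arrays did not overlap. It was the single positive clone with a mean of 2 or more in both genotypes.

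The clone of spots 2857 to 2859 had 6 hr values of 2.94 and 2.04 on the ZS-5 arrays and 2.20 and 1.42 for LA2711, in the same order of dyes. Both LA2711 arrays lay below the ZS-5 array of the same dye, but the genotypes overlapped between dyes. Spots 712 to 714 had 2.43 and 1.60 on the ZS-5 arrays and 1.90 and 1.24 for LA2711. This clone also had the largest early single-array value on the positive side, 0.98 in ZS-5 at 2 hr with treated RNA in Cy5 against 0.14 on the swapped array.

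The remaining clones of this side are spots 3538 to 3540 and spots 5272 to 5274, named here after their values were seen so that all 7 are shown. Spots 3538 to 3540 read 1.89 and 1.44 on the ZS-5 arrays and 1.64 and 1.14 for LA2711 at 6 hr. Spots 5272 to 5274 read 1.57 and 0.78 on the ZS-5 arrays and 1.82 and 1.20 for LA2711. The latter was the one positive clone with LA2711 further out than ZS-5.

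Just inside the 6 hr limit on the positive side were spots 517 to 519 and spots 8278 to 8280. Spots 517 to 519 had a mean of 1.70 in ZS-5 and 1.06 in LA2711, where the arrays read 1.58 and 0.54, so that 1 of its 4 arrays of 6 hr overlapped its early arrays. Spots 8278 to 8280 had means of 1.25 and 1.13. Just outside the limit were spots 607 to 609, with 0.998 in ZS-5 and 1.13 in LA2711, and spots 7960 to 7962, with 1.55 and 0.985. The border between these clones is thus a matter of hundredths of a log2 unit, well within the difference between dyes.

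On the negative side the clone of spots 5656 to 5658 lay furthest out. Its 6 hr values were -4.32 and -4.18 on the ZS-5 arrays and -3.67 and -3.52 on the LA2711 arrays, with treated RNA in Cy5 first. Its 8 earlier arrays ranged from -0.55 to 0.42. Both LA2711 arrays lay above both ZS-5 arrays at 6 hr, and the swapped arrays of each genotype differed by little.

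Spots 61 to 63 had 6 hr values of -2.82 and -4.08 on the ZS-5 arrays and -2.94 and -3.74 for LA2711. Here the genotypes were alike and the dyes were apart: early values with treated RNA in Cy5 reached 0.93 in LA2711 at 30 min, against 0.12 on the swapped array. Spots 10165 to 10167 had -2.92 and -3.37 on the ZS-5 arrays and -2.79 and -2.89 for LA2711, with all 8 early arrays within 0.35 of 0. These 3 clones were among the 11 negative clones with a mean of 2 or more from 0 in both genotypes, and 27 passed 1.5.

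Just inside the limit on the negative side were spots 6841 to 6843, with means of -1.02 in ZS-5 and -1.34 in LA2711, and spots 1081 to 1083, with -1.02 and -1.41. On the ZS-5 array with treated RNA in Cy5 these clones read only -0.57 and -0.63. Just outside were spots 8149 to 8151, with -0.99 and -1.02, and spots 6517 to 6519, with -0.98 and -1.17. At 2 hr spots 6841 to 6843 had means of 0.17 in ZS-5 and -0.47 in LA2711, whereas spots 1081 to 1083 had -0.23 and -0.24.

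Next, the 58 clones were set beside every clone that stayed within 0.58 of 0 at the early times. There were 380 such clones, members included, 378 of them unannotated, which is 12.9% of the 2941 unannotated clones. Of the 380, 122 lie at 4 places that recur in the array order with ratios near 0 in every condition (described further on) and 1 at a place measured once, which leaves 257. Of these 257, 7 (2.72%) reached 1 on the positive side in both genotypes at 6 hr and 52 (20.2%) on the negative side, the 52nd being an annotated clone. A further 70 (27.2%) stayed within 0.58 at 6 hr too, and the rest lay between the limits or passed in 1 genotype alone.

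Clones that passed in 1 genotype alone were unevenly divided. On the positive side 23 of the 257 clones passed in ZS-5 alone and 1 in LA2711 alone. On the negative side 3 passed in ZS-5 alone and 21 in LA2711 alone. In 0 clones did the genotypes pass on opposite sides. A clone that passes positive in ZS-5 alone or negative in LA2711 alone has by definition the lower value in LA2711. Over all 3018 clones the LA2711 minus ZS-5 difference at 6 hr had a median of -0.18, and its part in the splits was not tested. With each array centred on its median the splits were 24 against 1 and 3 against 12, and 286 clones were within the early limit. With each array shifted so that 4 of the recurring places had a median of 0 they were 21 against 1 and 8 against 11. The positive split was of like size under all 3 scalings, and the negative one was nearly even under the last.

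The difference between genotypes was not itself a criterion, but the rule bounds it: both means lie within 0.58 of 0 at 2 of the 3 times and on one side at 6 hr. A count of calls among the 58 clones is therefore a description and nothing is read from it. The difference was fitted with limma on the 6 condition means of all 3018 clones, with time as a factor and 2-sided, Benjamini-Hochberg adjusted over all clones. None of the 58 clones was called, beside 0.0% of all clones. At an unadjusted p under 0.05 there was 1 of the 58 clones, beside 6.89% of all clones. That clone was spots 3955 to 3957, with LA2711 above ZS-5 by 0.63 ± 0.23 (SE, limma adjusted p = 0.647). At 6 hr it read -3.18 and -3.53 on the ZS-5 arrays and -2.20 and -2.63 on the LA2711 arrays, which did not overlap. At 30 min the corresponding means were -0.12 and 0.33, and at 2 hr -0.44 and 0.05, so LA2711 was higher at each of the 3 times. With 1 value per condition the fit has few residual degrees of freedom, and a difference confined to 6 hr enters it only as a mean over times. The missing calls do not show that the genotypes responded alike.

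At 6 hr alone there is 1 replicate per genotype and no test. Both LA2711 arrays lay below both ZS-5 arrays for 9 of the 58 clones, all negative, beside 24.1% of all clones, and above them for 3, all negative, beside 12.3%. Compared within each dye, LA2711 was below ZS-5 in both dyes for 41 clones, 6 positive and 35 negative, beside 54.3% of all clones. It was above in both dyes for 8 clones, 1 positive and 7 negative, beside 25.8%. For a negative clone a lower value is further from 0 and for a positive clone it is nearer to 0. The median difference was -0.24 over the negative and -0.44 over the positive clones, against -0.34 over the other 199 clones within the early limit outside the recurring places, some of which passed at 6 hr in 1 genotype. Nothing is called particular to the 58. The counts of clones with all arrays apart changed from 9 and 3 to 16 and 10 with each array centred, and to 9 and 9 with the shift to 4 recurring places.

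The widest difference at 6 hr belonged to spots 5566 to 5568. The ZS-5 arrays read -1.03 and -2.23 and the LA2711 arrays -2.87 and -3.24, a difference of means of -1.42, with the 4 arrays not overlapping between genotypes. Both ZS-5 arrays of this clone were themselves apart by more than the LA2711 arrays were. Spots 3955 to 3957, with 0.94, had the widest difference in the other direction. On the positive side spots 2857 to 2859 and 517 to 519 had the widest differences, -0.68 and -0.64, and both overlapped between dyes. Across the 51 negative clones the ZS-5 and LA2711 means at 6 hr correlated at r = 0.84, a description over clones that share the same arrays and were cut at the limit.

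**Figure D3:**
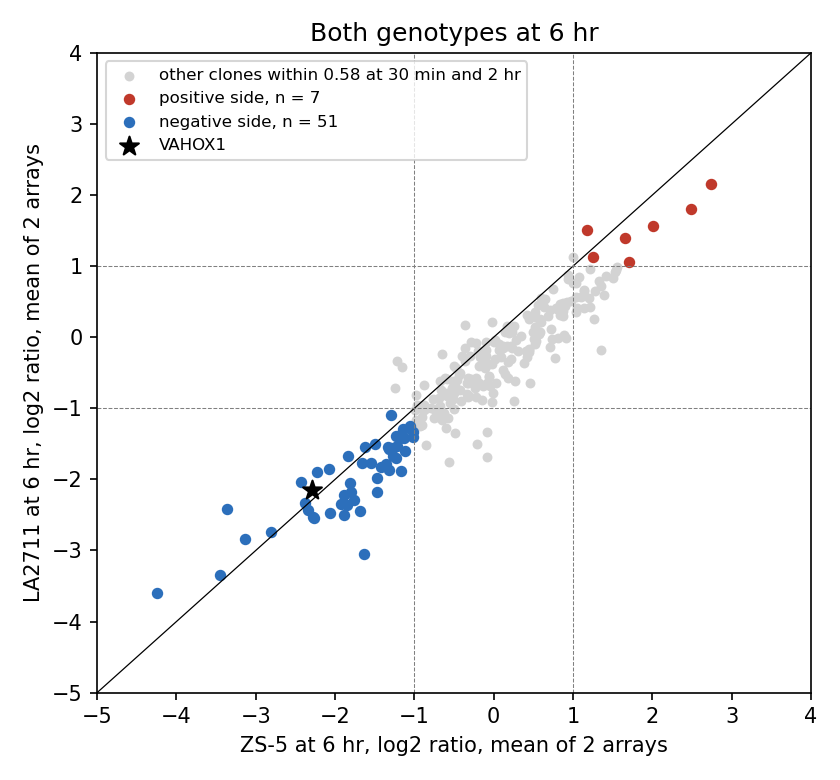
Mean uncentred log2 ratio of the 2 arrays at 6 hr in ZS-5 (x axis) and in LA2711 (y axis) for the 7 positive clones, the 51 negative clones, the annotated clone VAHOX1 and, in grey, the other clones within 0.58 at 30 min and 2 hr outside the recurring places. The solid line is equality and dashed lines mark 1 and -1; 6 of the 7 positive and 38 of the 51 negative clones lie below the line of equality, and of the 58 spots 5566 to 5568 lie furthest below it.

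The difference between the dyes was not used by the rule. Before centring, the array with treated RNA in Cy5 was higher than its swapped partner at 6 hr by a median of 0.63 in ZS-5 and 0.62 in LA2711 over the negative clones, against 0.53 and 0.46 over all clones. The 6 differences were centred on their median over clones and tested with limma, 2-sided and adjusted over 3018 clones. Higher with treated RNA in Cy5 were 14 of the 58 clones, 3 positive and 11 negative, beside 20.4% of all clones. Lower were 3, all negative, beside 17.2%. Without ZS-5 at 2 hr or without LA2711 at 30 min, 10 clones were called in place of 17. The smallest p belonged to spots 2515 to 2517, whose Cy5 arrays were higher by 0.65 ± 0.095 (SE, n = 6 pairs, limma adjusted p = 0.000901) beyond the median clone. Its 6 hr arrays read -0.87 and -2.08 on the ZS-5 arrays and -1.40 and -2.94 for LA2711, so that the size of its response depended on the dye while its side did not. Every condition mean holds both dye orientations once.

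Of the 77 annotated clones measured on all arrays, which stand for 36 genes, 2 stayed within the early limit and 1 met the whole numeric rule. It was VAHOX1 (spots 3070 to 3072), which encodes a homeodomain-leucine zipper transcription factor, a plant protein class whose members bind DNA as dimers. Its 6 hr values were -1.83 and -2.76 on the ZS-5 arrays and -1.66 and -2.64 on the LA2711 arrays. Its means at 30 min were -0.09 and 0.20, and at 2 hr -0.35 and 0.07, in ZS-5 and LA2711. VAHOX1 thus had the profile of the negative clones, with the genotypes closer to each other than the dyes. The other was MT4 (spots 2149 to 2151), a metallothionein gene, of the cysteine-rich metal-binding proteins, with a 6 hr mean of 1.36 in ZS-5 and -0.18 in LA2711.

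Likeness to the set was measured as the Euclidean distance of the 6 condition means to the median profile of the positive or of the negative clones, taking the nearest clone of each gene. VAHOX1 was nearest to the negative profile at 0.92. Next came AOS, allene oxide synthase of jasmonate synthesis, at 1.57, PSBR, a photosystem II protein, at 1.75, SAM3, S-adenosylmethionine synthetase, at 2.06 and ACS7, an enzyme of ethylene synthesis, at 2.14. This SAM3 clone (spots 5650 to 5652) was at only -0.624 in ZS-5 and -0.555 in LA2711 at 6 hr, and at 1.128 in ZS-5 at 30 min. Of the 5 SAM3 clones, 3 were positive and 0 negative at 6 hr in both genotypes, and another is named below beside the positive profile. ACS7 (spots 5347 to 5349) missed the early limit narrowly in ZS-5 and by more in LA2711. Its means lay at -0.18, -0.58 and -3.31 in ZS-5 and at 0.16, -0.88 and -2.86 in LA2711 at 30 min, 2 hr and 6 hr, and all 4 of its arrays of 2 hr were negative.

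Nearest to the positive profile was TIP, a tonoplast aquaporin that carries water across the vacuole membrane, at a distance of 1.03. It lay at -0.93, 1.03 and 1.55 in ZS-5 and at 0.29, 0.04 and 1.81 in LA2711. In LA2711 alone TIP had the profile of the set, whereas in ZS-5 it passed both early limits, with a side that changed between 30 min and 2 hr. The glutamine synthetase gene gts1, a NAC1 clone, a SAM3 clone and MT4 followed at 1.79 to 1.99. The NAC1 clone (spots 3769 to 3771) was at 1.04 in ZS-5 but at -0.05 in LA2711 at 6 hr. Of the 9 NAC1 clones, 0 were positive and 8 negative at 6 hr in both genotypes, so the gene as a whole is not like the positive set. The SAM3 clone (spots 3181 to 3183) was at 1.94 and 1.78 at 6 hr but already at 1.39 and 0.68 at 30 min. Of 47 annotated clones in 10 functional groups (ion and water transport, ethylene, oxylipins, NAC factors, heat shock, peroxide handling, defence, carbon metabolism, nitrogen and amino acids, S-adenosylmethionine), 0 met the numeric rule and 0 stayed within the early limit, while at 6 hr 12 (25.5%) were positive and 24 (51.1%) negative in both genotypes, near the 19.1% and 47.7% of all clones. VAHOX1 and MT4 are in none of these groups, so the counts of 0 go with which genes were grouped.

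The place of the clones in the array order was examined after their values were seen and is a description. The order repeated every 108 clones, the spacing between 20 and 200 clones at which 6 hr means correlated most, which makes 32 runs. Clones 108 apart correlated at r = 0.57, clones 54 apart at -0.37 and neighbours at 0.47. Places 1 to 8 held similar ratios from run to run. Over the 6 conditions the medians of places 1 to 4 lay between -0.08 and 0.09, of place 5 between -2.87 and -2.61, of place 6 between 2.83 and 3.20, of place 7 between -1.22 and -0.75 and of place 8 between 1.17 and 1.46. The labels do not say what these recurring spots are. None of the 58 clones is among them.

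The remaining clones were divided into 2 stretches of each run, the first mostly negative at 6 hr. Places 10 to 57 had a median 6 hr mean of -3.25, and places 58 to 108 of 0.80, although 6 of these 51 places had a median below 0. In the first stretch 80.4% of clones were negative and 2.22% positive at 6 hr in both genotypes, and in the second 21.0% and 34.5%. The first stretch held 41 of the 51 negative and 2 of the 7 positive clones, and the second 10 and 5, with 5 of the 10 at the 6 places with a negative median. Of the unannotated clones within the early limit, 41 of 111 in the first stretch (36.9%) and 10 of 144 in the second (6.94%) were negative members. Most clones of the set were negative in both stretches, and the labels do not say what the stretches are.

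**Figure D4:**
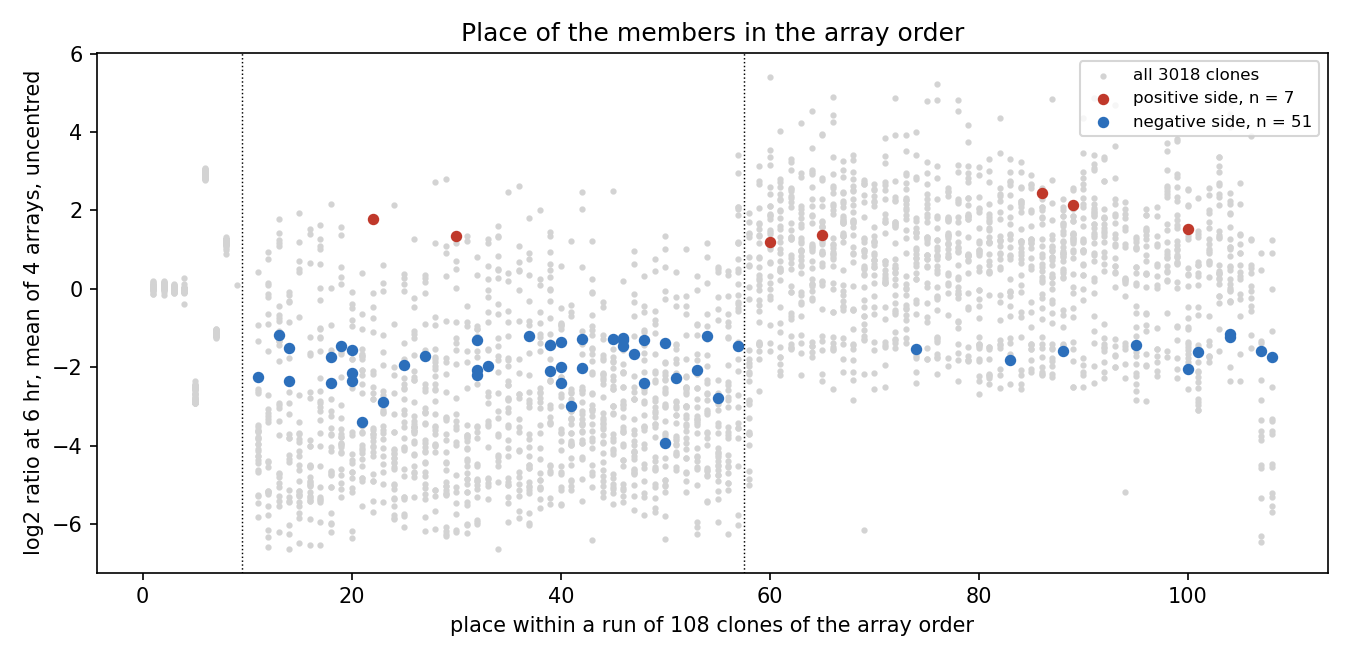
Mean uncentred log2 ratio of the 4 arrays of 6 hr (y axis) against the place of a clone within its run of 108 clones (x axis) for all 3018 clones, with the 7 positive and 51 negative clones in colour. Dotted lines separate places 1 to 9, 10 to 57 and 58 to 108; 41 negative clones lie in the middle stretch and 10 in the right one.

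The 58 clones were spread over 29 of the 32 runs, with at most 4 in a run and 0 next to each other in the order of spot numbers. Their position on the slide itself was not examined. The same place in another run was shared by 28 of the clones, a count that was not set beside a background and from which nothing is read. Whether clones of the set carry the same cDNA, which subtracted libraries often hold more than once, cannot be told apart here without sequences, and the number of genes behind the 58 clones is therefore unknown.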

How the data were processed

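Per the labels, the 2 channels of each array held treated and control RNA with the dyes swapped between the 2 arrays of a condition. The authors deposited 1 log2 ratio per spot and array; the sources used here name no scanner, background correction or normalization. The underlying ratio is a number of 3 decimals for 100.0% of spots where treated RNA carried Cy3, and its inverse is one on the swapped arrays, so the deposited signs of one orientation were already turned and none was flipped. Each array held 9013 to 9900 of 10368 spots. Every 3 adjacent spots were averaged to 1 clone, leaving out 366 spot values of 9.965 or more from 0. The median SD within sets was 0.092 to 0.164 over the arrays, and 0.268 to 0.993 in sets shifted by 1 spot. Values were not centred, as the rule of selection states. Intensities were not used here, so depth is unknown, and precision is limited by how many arrays there are. Of 38 annotated genes, 37 were found by ID in the RefSeq table of assembly SLM_r2.1, with 0 symbols changed.

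The genotype difference was fitted on 6 condition means (genotype and time) and the dye difference on 6 centred Cy5 minus Cy3 differences. Both fits used limma 3.58.1 in R 4.3.3 (lmFit and eBayes, Benjamini-Hochberg at 0.05). Their code was also run on simulated data with noise of the same SD for every clone, from which nothing is read here. The p-values of both fits rest on the spread between conditions alone, part of which may be technical. Named are, per side, the 3 clones with the largest 6 hr mean, the 2 nearest inside and outside the limit, the 2 with the widest genotype difference, the smallest p of each test, and annotated genes that meet the rule or are the 5 nearest in profile. The members and lists were chosen with earlier results of these data known. Alternatives covered centring, quantile normalisation, limits, spot summary, missing arrays, a replicate block and leaving out arrays. The 438 clones with missing arrays were not tested; 156 of them had a value in every condition and 1 of those met the numeric rule, on the positive side.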

Additional observations from a re-analysis of the deposited data

Results flagged for a closer look

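Among the 58 clones there were 15 cases in which both arrays of one genotype lay on one side of 0 and both arrays of the other on the opposite side at the same time of treatment. None of these differences was tested, since each condition has 1 replicate. At 30 min there were 9 such clones (15.5%), all with ZS-5 below and LA2711 above 0, beside 9.87% of all 3018 clones. At 2 hr there were 6 (10.3%), all the other way round, beside 5.57%. At 6 hr there were 0, which the choice of the clones fixes. The choice also kept the means of the 58 clones near 0 at 30 min and 2 hr, which was not asked of all clones. The shares at these times are therefore not like for like, and nothing is read from their difference. The share among the other clones within the early limit was not counted.

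The widest gap belonged to spots 5272 to 5274, on the positive side, with a LA2711 minus ZS-5 difference of -0.956 at 2 hr (0.536 in ZS-5 and -0.42 in LA2711). Spots 6841 to 6843 were the one clone with a case at both times, 0.637 at 30 min (-0.241 and 0.396) and -0.636 at 2 hr (0.17 and -0.466), so the order of its genotypes turned between them. The other cases at 2 hr, all on the negative side, were -0.673 for spots 4432 to 4434, -0.513 for spots 6940 to 6942, -0.367 for spots 7609 to 7611 and -0.359 for spots 6271 to 6273.

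At 30 min the difference was 0.61 for spots 8278 to 8280, the one clone of the positive side among the 9. On the negative side it was 0.814 for spots 6235 to 6237, 0.642 for spots 9760 to 9762, 0.6 for spots 9772 to 9774, 0.554 for spots 6292 to 6294 and 0.544 for spots 6622 to 6624. It was 0.44 for spots 4306 to 4308 and 0.397 for spots 5656 to 5658, the clone furthest out at 6 hr. Among the annotated genes named above it was 1.024 for gts1, a glutamine synthetase gene, at 30 min (-0.633 and 0.391), and 0.334 for ACS7, of ethylene synthesis, at 30 min (-0.179 and 0.155). The median of all clones was itself higher in LA2711 than in ZS-5 at 30 min (0.20 and -0.02) and lower at 2 hr (-0.33 and 0.01), and the part of these shifts in the differences was not tested.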

How the results depend on the processing

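The number of clones on each side depended on the scaling and the limits. Against 7 positive and 51 negative clones, centring each array gave 64 and 23 (5 and 14 shared), and quantile normalisation 7 positive (1 shared) and 2 negative, with a positive ZS-5 median of 1.19 at 6 hr. A 6 hr limit of 1.5 left 3 and 27 clones, with medians of 2.49 (positive, ZS-5) and -2.35 (negative, LA2711). An early limit of 0.4 left 0 and 13, which gives no positive median. Asking every 6 hr array for 1 or more left 4 and 32 (positive ZS-5 median 2.25), and asking every early array to be within 0.58 left 1 and 12. Shifting arrays to places 1 to 4, an alternative chosen after seeing the data, gave 16 positive clones (7 shared) and 45 negative (37 shared). Without single arrays the set held 3 to 25 positive and 28 to 66 negative clones. Positive clones numbered 25 and 3 without repeat 1 and repeat 2 of ZS-5 at 2 hr, 4 without repeat 2 of LA2711 at 30 min, and 20 without repeat 2 of LA2711 at 6 hr. Negative clones numbered 33 without repeat 2 of ZS-5 at 6 hr and 28 without repeat 1 of LA2711 at 2 hr. The 6 hr medians then ranged over 1.40 to 2.01 (ZS-5) and 1.13 to 1.66 (LA2711) for positive clones, and over -1.78 to -1.43 and -2.22 to -1.67 for negative ones.

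The genotype difference was called for 0 clones, and for 158 with the 12 arrays as separate samples and the repeat number as a replicate block, where 0 of the 58 were called and spots 3955 to 3957 had a limma adjusted p of 0.0538. The labels do not say that the numbers pair the samples. Left-out arrays or times gave 0 to 50 clones (50 without 2 hr), 0 to 0 members, and 0.463 to 0.795 for spots 3955 to 3957. Uncentred dye differences gave 2244 clones and 51 members, against 1136 and 17. Left-out conditions gave 741 to 1521 clones, 10 to 25 members (10 without ZS-5 at 2 hr and without LA2711 at 30 min, the latter also giving the 741), and 0.563 to 0.708 for spots 2515 to 2517. LA2711 lay below and above ZS-5 at 6 hr in 9 and 3 members, in 16 and 10 after centring, in 41 and 8 within each dye, and above it in 9 after the shift to places 1 to 4. The cause of these changes was not tested. Keeping spots at the ratio limits left the numbers of members, calls and clones apart within 1.5-fold. Median spots, partly missing clones and annotated clones were tried for the numbers and medians of the members alone, which moved no count by more.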
